A study of Mus musculus with 16 samples.

Results

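The comparison described here sets mutant retina and retinal pigment epithelium (RPE) at 1 year of age against the same tissue at 1 month. It rests on 8 of the 16 arrays of the series, 4 for each age, chosen by their labels alone. All 8 came from mice carrying the nm3342 mutation on the C57Bl/6J background, labelled male and killed at P30 or P365, counted from birth. The remaining 8 arrays held wild-type mice of the same background and ages, 4 for each age, and are used only where the change with age in the mutant is set against that in the wild type. The labels describe the tissue of the 1-month and 1-year mutants as serous retinal detachment of that duration. The gene hit by the mutation is not given there, and genotype could therefore not be checked on the arrays. RNA came from both retinas and their RPE as 1 sample, so whether retina or RPE carried a difference is not known, and in such bulk RNA fewer cells of a type and less RNA per cell cannot be told apart.

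In serous detachment, fluid gathers between the photoreceptor layer and the RPE, the pigmented epithelium that recycles visual pigment, takes up shed photoreceptor tips and pumps fluid toward the choroid. Photoreceptors that lose contact with the RPE are known to signal to Müller glia, the radial glia of the retina, which respond with a reactive programme of cytokine receptors, acute-phase proteins and complement. Microglia, the resident macrophages of the retina, become activated both in such injury and in ordinary aging, and the wild-type arrays show how much of the age difference is seen without the mutation.

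RNA was measured as Cy3 fluorescence on single-colour Agilent arrays. Levels below are log2 intensities relative to the 75th percentile of each array, so 0 is that percentile and 1 is a doubling, and differences are 1 year minus 1 month with the standard error of the model. A gene was called when limma's Benjamini-Hochberg adjusted p over 19022 genes was under 0.05. Between 82.1% and 89.6% of the non-control spots of a mutant array were well above background, and the 75th percentile of the processed signal lay between 603 and 994. The arrays lay on 2 slides with 2 arrays of every group on each. Gnat1, the rod transducin, lay between 7.56 and 8.06 on all 8 mutant arrays, and Rpe65, the isomerase of the visual cycle in the RPE, between 2.96 and 3.61, so markers of both labelled tissues were present.

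Sex-linked genes went against the label of male sex on 3 of the 8 mutant arrays. Xist, the RNA of the inactive X chromosome, read -7.30, -0.14, -0.38 and -5.68 at 1 month and -0.03, -8.07, -8.61 and -6.80 at 1 year in order of replicate. The arrays labelled 1-month replicates 2 and 3 and 1-year replicate 1 were the high ones, and Ddx3y, a Y-linked gene, was at -8.12, -8.41 and -8.47 there against 0.69 to 1.07 on the other 5. These 3 are called female-pattern arrays, and counts are given with and without them. The array labelled 1-month replicate 4 also stood apart: the mean of 4 erythrocyte genes was 3.99 there and -1.38 to 0.69 on the other 7.

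At 1 year, 1274 of the 19022 genes differed from 1 month in the mutant, 6.7% of those tested. Of these, 717 were higher (3.77%) and 557 lower (2.93%), and the 216 that differed at least 2-fold comprised 179 higher and 37 lower genes. The 4 arrays of one age lay wholly to one side of the 4 of the other for 2627 genes (13.8%), among them 1194 of the 1274 called genes. The largest rises and falls named below were picked among called genes without such overlap. For these, and for most called genes, lack of overlap is therefore no separate result. The median difference over all genes was -0.05. Over all 55681 non-control probes without a filter, 1228 (2.21%) were called, 682 higher and 546 lower. Without the female-pattern arrays, which leaves 2 against 3 mutant arrays, 275 genes were called, 200 higher and 75 lower, 268 of them among the 1274. Centring each array on its median in place of the 75th percentile gave 640 genes, 517 higher and 123 lower, so 80.8% were higher against 56.3%. Slide 1 alone gave 37 genes and slide 2 alone 162, each from 2 against 2 mutant arrays, and 1232 were called with slide as a block. Leaving out 1-month replicate 4 gave 1924 genes and leaving out 1-month replicate 3 gave 784.

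**Figure D1:**
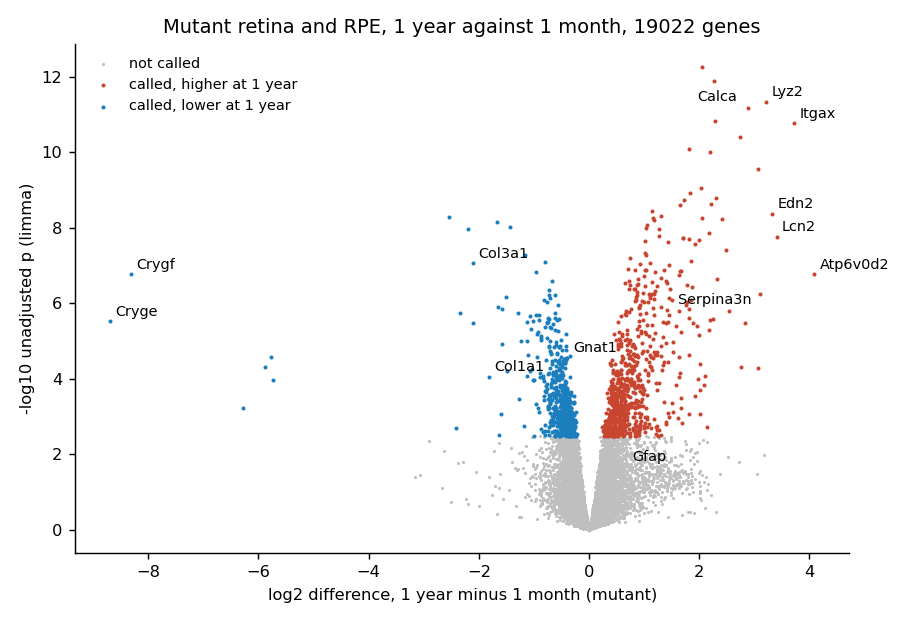
Each point is 1 of 19022 genes in the mutant, with the log2 difference between 1 year and 1 month on the x axis and minus log10 of limma's unadjusted p on the y axis. The 717 called genes to the right are higher at 1 year, the 557 to the left are lower, and the 6 gamma-crystallin genes stand alone at the far left.

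Of the 18 genes of gliosis and retinal stress tested, 13 rose and none fell, with a median difference of 1.20 against -0.05 over all genes. The mean of the list was -0.85 to -0.55 on the 1-month arrays and 0.58 to 0.97 on the 1-year arrays. Without the female-pattern arrays 10 of the 18 were called, with a median of 1.04. In the wild type 8 of the 18 rose with age and 1 fell, with a median of 0.46.

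Edn2 encodes endothelin 2, a peptide that stressed photoreceptors release onto Müller glia. Its level was -1.93, -0.69, -0.90 and -0.89 at 1 month and 2.11, 1.94, 2.76 and 2.05 at 1 year. Of the younger arrays, 1-month replicate 1 was the lowest. The difference was 3.32 ± 0.27, or 9.98-fold (limma adjusted p = 4.55e-06). Lcn2, the siderophore-binding protein lipocalin 2, read -1.10, -1.02, -1.0 and -0.83 at 1 month and 2.20, 2.47, 3.53 and 1.46 at 1 year, 10.6-fold higher (3.40 ± 0.30, limma adjusted p = 9.94e-06). The younger arrays lay close together and the older ones spread widely. Cebpd, a transcription factor of the acute-phase response, was 2.60, 2.67, 2.49 and 1.87 at 1 month and 4.35, 3.81, 4.41 and 4.30 at 1 year (1.81 ± 0.29, limma adjusted p = 0.00173). Serpina3n, a secreted protease inhibitor of reactive glia, rose from -1.56, -2.27, -2.78 and -1.43 to 0.38, 0.38, 0.89 and 0.44 (5.79-fold, limma adjusted p = 0.000246). Every 1-year value of Cebpd exceeded every 1-month value, and Serpina3n was picked among genes whose ages do not overlap.

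The cytokine branch of the same programme moved less. Osmr, the receptor for oncostatin M, rose by 1.03 ± 0.11 and Socs3, the feedback inhibitor of that pathway, by 1.1 ± 0.13 (limma adjusted p = 4.58e-05 and 0.000125). Neither gene overlapped between the ages. The list's other called members were Stat3, the transcription factor of this pathway, Cp, Gbp2, C4b, Timp1, Bcl3 and Steap4. Gfap, the intermediate filament of reactive Müller glia, is named here after its values were seen. It read -1.77, -2.09, -0.73 and -1.59 at 1 month and -0.48, -1.28, -0.69 and -1.02 at 1 year, which overlap, and did not pass the test (0.68 ± 0.26, limma adjusted p = 0.149).

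**Figure D2:**
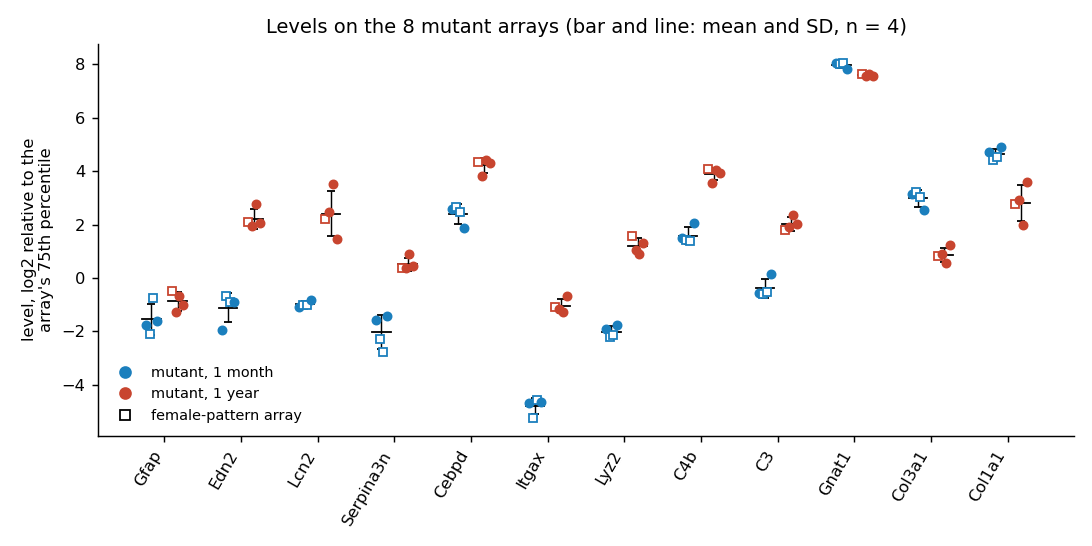
Levels of 12 genes on the 8 mutant arrays, in log2 relative to the 75th percentile of the array, with the mean and SD of each age (n = 4) and female-pattern arrays as open squares. Edn2, Lcn2, Serpina3n, Cebpd, Itgax, Lyz2, C4b and C3 are higher on every 1-year array, Gnat1, Col3a1 and Col1a1 are lower on every one, and Gfap overlaps.

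General Müller glia genes moved little beside this. Of 11 tested, 4 rose and none fell, with a median of 0.16, and none was called without the female-pattern arrays. The called ones were Crym, which encodes a thyroid hormone-binding protein (0.66 ± 0.11), the water channel Aqp4 (0.53 ± 0.11), the lipid carrier Apoe (0.49 ± 0.12) and the transcription factor Sox9 (0.42 ± 0.08). Glul, which makes glutamine synthetase, and Slc1a3, the glutamate transporter of these cells, differed by -0.04 and -0.05 and were not called.

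Complement genes were higher as well. Of 17 tested, 12 rose and none fell, with a median of 0.99, and 7 were called without the female-pattern arrays. With age in the wild type 14 of the 17 rose and none fell, with a median of 1.26. C3, the protein on which all activation routes meet, was -0.55, -0.60, -0.53 and 0.16 at 1 month and 1.79, 1.92, 2.37 and 2.02 at 1 year, 5.3-fold higher (2.41 ± 0.20, limma adjusted p = 4.93e-06). The highest of the younger arrays was replicate 4, which still lay below every older one. A further probe of C3 gave 1.52 ± 0.15. C4b, of the classical pathway, read 1.49, 1.41, 1.38 and 2.07 and then 4.07, 3.57, 4.05 and 3.92 (4.96-fold, limma adjusted p = 2.44e-06), and replicate 4 was again the highest at 1 month. C1qc, a chain of the first classical component, rose by 1.20 ± 0.13 and Cfb, of the alternative pathway, by 1.51 ± 0.18. Cfi, the protease that cuts activated C3 and C4, read -2.15, -1.93, -2.08 and -2.31 at 1 month and 0.04, -0.89, -0.11 and -0.08 at 1 year (3.62-fold, limma adjusted p = 3.17e-05).

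Markers of activated microglia and macrophages rose in 9 of 15 members tested and fell in none, with a median of 1.36, and 6 were called without the female-pattern arrays. The mean of the list was -1.57 to -1.38 on the 1-month arrays and -0.36 to -0.09 at 1 year. Itgax, the integrin CD11c, was -4.67, -5.23, -4.58 and -4.63 at 1 month and -1.08, -1.17, -1.27 and -0.67 at 1 year. That is a 13.3-fold rise (3.73 ± 0.20, limma adjusted p = 5.34e-08), with the lowest young array, replicate 2, apart from the rest. Trem2, a lipid-sensing receptor of microglia, read -0.25, -0.59, -0.38 and -0.41 and then 1.97, 1.74, 1.82 and 1.91 (4.82-fold, limma adjusted p = 1.27e-08). Its signalling partner Tyrobp rose by 1.70 ± 0.15 and the endosomal protein Laptm5 by 1.36 ± 0.14. The ages did not overlap for Trem2, Tyrobp and Laptm5, as for most called genes, and Itgax was picked among genes without overlap.

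Lyz2, lysozyme of myeloid cells, was -1.92, -2.22, -2.12 and -1.76 at 1 month and 1.56, 1.05, 0.91 and 1.31 at 1 year, a 9.27-fold rise (limma adjusted p = 2.91e-08). Its neighbour Lyz1 rose 8.4-fold (3.07 ± 0.20, limma adjusted p = 5.27e-07). The pair are near-identical copies whose probes may bind both RNAs, so the 2 values are not independent. Their likeness extends upstream of the start sites, where 60 bases of each (RefSeq, build GRCm38.p6) share 52 positions after alignment. They are printed from 120 to 61 bases before the start to show this, with matches to AGGAAGT on either strand in capitals, a word resembling the site of the myeloid factor PU.1.
Lyz1, chr10:117292929-117292988, minus strand: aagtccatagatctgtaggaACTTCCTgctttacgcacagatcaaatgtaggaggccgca
Lyz2, chr10:117282333-117282392, minus strand: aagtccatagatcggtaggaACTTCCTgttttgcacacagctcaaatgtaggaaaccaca
Both carry the word at the same place, 100 bases before the start, on the opposite strand. Of the 12 called members of the microglia and macrophage lists, 8 had a promoter window of 250 bases before to 50 after the start in the table, and 3 held the word (Cst7, Lyz2 and Retnla). Over all 32851 windows 9.35% held it, and such a match is a description of the sequence only.

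Genes listed as homeostatic microglia markers were higher in 3 of 12 tested and lower in none, with a median of 0.26. Among the called ones were the cytoskeletal protein Aif1 (0.82 ± 0.13) and the receptor Gpr34 (0.61 ± 0.16), neither of which was called without the female-pattern arrays. P2ry12 and Tmem119, the receptor and membrane protein most used to identify resting microglia, differed by 0.22 and 0.30 and were not called. Lymphocyte markers (0 of 15 called, median -0.03) and neutrophil markers (0 of 9, median 0.04) gave no call. S100a8, a neutrophil granule protein, read -3.52, -3.59, -0.14 and -2.63 at 1 month, where replicate 3 was the high array, and -2.97, -3.44, -2.79 and -1.86 at 1 year. With age in the wild type 4 of the 9 neutrophil markers rose, with a median of 0.78, and S100a8 rose by 4.55. The mutant's S100a8 change differed from that by -4.845 ± 0.997, which missed the threshold (limma adjusted p = 0.0523). Its probe was well above background on 2 of 4 younger wild-type arrays, so these sizes are uncertain.

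Lysosomal genes rose in 5 of 14 tested and fell in none, with a median of 0.26. With age in the wild type 10 of the 14 rose, with a median of 0.44. Ctss, the cathepsin of antigen-presenting cells, was 1.76, 1.51, 1.70 and 1.51 at 1 month and 3.75, 3.81, 3.90 and 3.80 at 1 year (4.57-fold, limma adjusted p = 2.15e-07). Atp6v0d2 encodes a subunit of the vacuolar proton pump. Its probe was not well above background on any 1-month array and was so on all 4 at 1 year, so the size of its rise is uncertain (measured means -7.12 and -3.04). The probe passed the filter only through the 1-year arrays of both genotypes. With each 1-month value raised to the dimmest signal among probes well above background on that array, or left where higher, the rise was 9.54-fold. This is no strict lower bound, since a probe not well above background can read brighter than that signal. Ctsb, Ctsd and Npc1, which serve lysosomes of most cells, rose by 0.44, 0.38 and 0.30, and none of the 3 was called without the female-pattern arrays.

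Antigen presentation genes rose in 9 of 14 tested and fell in none, with a median of 0.95, and 3 were called without the female-pattern arrays, H2-K1, H2-D1 and Tap2. H2-K1, a class I heavy chain, was 2.63, 2.46, 2.38 and 3.13 at 1 month and 3.67, 3.94, 3.80 and 3.76 at 1 year (2.21-fold, limma adjusted p = 0.000119). Replicate 4 was the highest of the younger arrays. The class I chain H2-D1 rose by 0.93 ± 0.12, the peptide transporter Tap2 by 1.01 ± 0.11 and the immunoproteasome subunits Psmb8 and Psmb9 by 1.23 ± 0.20 and 0.97 ± 0.15. H2-K1 and H2-D1 belong to a family of close copies whose probes may share targets. Interferon-stimulated genes passed the test in 1 of 20 members, the GTPase Irgm1 (0.57 ± 0.14), where 6.7% of all genes were called. Irgm1 was not called without the female-pattern arrays (0.37, limma adjusted p = 0.405), and the list median turned from 0.26 to -0.12. In the mutant the mean of this list was 0.03 on 1-month replicate 4 against -0.94 to -0.59 on the other 3. With age in the wild type 12 of the 20 rose and none fell, with a median of 0.93.

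Among 18 cytokines and chemokines tested, 5 rose and none fell, with a median of 0.64. Ccl8 rose by 1.64 ± 0.27, Ccl2 by 0.99 ± 0.20, Ccl12 by 0.86 ± 0.22 and Cxcl1 by 1.01 ± 0.28. These attract monocytes and, for Cxcl1, neutrophils. Ccl28, a chemokine of epithelia, read -4.08, -4.35, -4.68 and -4.44 at 1 month and -3.49, -2.94, -2.74 and -3.13 at 1 year (1.31 ± 0.17, limma adjusted p = 0.000201). The ages did not overlap. Without the female-pattern arrays 3 of the 18 were called, Ccl8 and Ccl28 among them, and Ccl2, Ccl12 and Cxcl1 were not (limma adjusted p = 0.2, 0.512 and 0.311).

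Rod photoreceptor genes were lower by small amounts. All 24 were tested and all had a negative difference, from -0.63 to -0.12, with a median of -0.30, and 11 passed the test. Gnat1, which couples light capture in rods to the phosphodiesterase, was 8.04, 8.01, 8.06 and 7.81 at 1 month and 7.62, 7.56, 7.62 and 7.56 at 1 year. The older arrays lay close together and below all younger ones (-0.39 ± 0.07, 1.31-fold lower, limma adjusted p = 0.00193). Recoverin, encoded by Rcvrn, which sets the lifetime of the light response, read 6.95, 6.90, 7.03 and 6.52 and then 6.30, 6.20, 6.35 and 6.23 (1.5-fold lower, limma adjusted p = 0.00852). Replicate 4 was the lowest young array for both genes.

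Nrl, the transcription factor of rod fate, fell by 0.41 ± 0.08, Aipl1, the chaperone of the rod phosphodiesterase, by 0.63 ± 0.13 and Pde6b, a subunit of that enzyme, by 0.48 ± 0.11. A further probe of Nrl gave -0.41. The number of rod genes called depended on single arrays and on centring. It was 19 without 1-month replicate 4, 1 without the female-pattern arrays and 1 with median centring, while the medians were -0.36, -0.29 and -0.25. The gene called without the female-pattern arrays was Aipl1 (-0.76, limma adjusted p = 0.04).

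Cone genes fell in 2 of 12, with a median of -0.32, where 2.93% of all genes were called lower. Opn1mw, the medium-wavelength opsin, was 3.68, 3.74, 3.38 and 3.30 at 1 month and 2.98, 2.66, 3.23 and 2.94 at 1 year (limma adjusted p = 0.0182), and Cnga3, the cone cyclic nucleotide-gated channel, fell by 0.54 ± 0.15. Neither was called with median centring or without the female-pattern arrays. Bipolar cell genes gave no call among 13 (median -0.08), amacrine genes 1 of 11, the acetylcholine transporter Slc18a3 (-0.32 ± 0.08), and horizontal cell genes 1 of 5, the calcium buffer Calb1 (-0.68 ± 0.16). Neither Slc18a3 nor Calb1 was called without the female-pattern arrays. With age in the wild type, Opn1mw differed by -0.67 ± 0.13 and Slc18a3 by -0.48 ± 0.08. There 1 of 12 cone, 5 of 13 bipolar, 3 of 11 amacrine and 0 of 5 horizontal cell genes fell. The wild-type medians were -0.15, -0.32, -0.25 and -0.28 in that order, and 12.4% of all genes were called in the wild type.

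Retinal ganglion cell genes were negative in all 15 members, with a median of -0.42, and 3 passed the test, none without the female-pattern arrays. These were the tubulin Tubb3 (-0.60 ± 0.11), the transcription factor Pou4f3 (-0.96 ± 0.21) and melanopsin, Opn4 (-0.47 ± 0.13). Tubb3 read 3.38, 3.43, 3.39 and 3.34 at 1 month and 2.91, 2.44, 2.89 and 2.90 at 1 year. The younger arrays lay close together, and 1-year replicate 2 was the lowest.

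Genes of immature neurons fell in 4 of 12, all 12 being negative, with a median of -0.30. With age in the wild type 7 of the 12 fell, with a median of -0.39. Sox4, a transcription factor of differentiating neurons, was -0.28, -0.01, 0.05 and -0.19 at 1 month and -0.73, -0.89, -0.81 and -0.85 at 1 year (-0.71 ± 0.09, limma adjusted p = 0.000135). Its relative Sox11 fell by 0.84 ± 0.15, the cytoskeletal proteins Marcksl1 and Dpysl3 by 0.95 ± 0.16 and 0.57 ± 0.08. Every 1-year array was below every 1-month array for these genes. Sox4 and Dpysl3 were also called without the female-pattern arrays. Of the imprinted growth genes 2 of 10 fell, Mest (-0.64 ± 0.17) and Dlk1 (-0.73 ± 0.21), while 0 of 17 cell cycle genes was called. Neither Mest nor Dlk1 passed the test without the female-pattern arrays (limma adjusted p = 0.431 and 0.294), and none of the 10 was called then or with median centring.

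**Figure D3:**
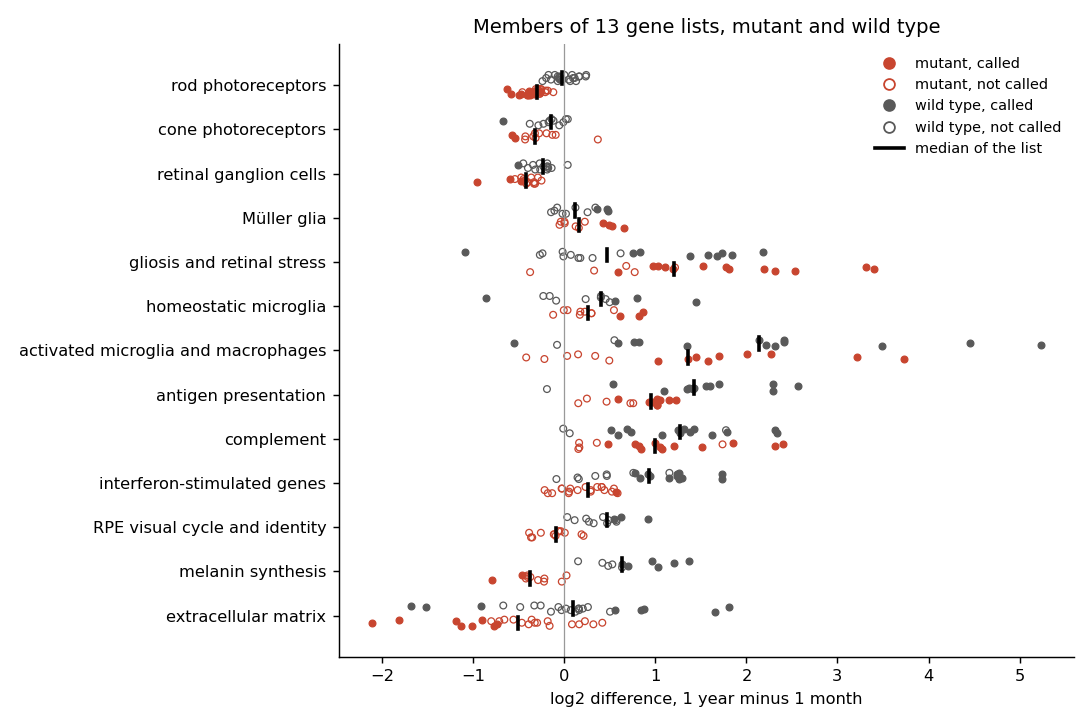
Log2 differences between 1 year and 1 month (x axis) for the members of 13 gene lists (rows), with the mutant in red below and the wild type in grey above in each row, called members filled and the list median as a black bar. In the mutant, members of the gliosis, activated microglia, antigen presentation and complement lists lie mostly to the right, and rod, ganglion cell, melanin and matrix members mostly to the left of 0.

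RPE genes gave few calls. None of 13 visual cycle and identity genes was called, with a median of -0.10 and 10 negative. Rpe65 read 3.61, 2.96, 3.47 and 3.16 at 1 month and 3.38, 2.98, 3.08 and 3.52 at 1 year, which overlap (-0.06 ± 0.17, limma adjusted p = 0.886). Of 16 genes of RPE junctions and transport, 1 fell and none rose. It was Slc16a3, the lactate exporter that is also used by glycolytic cells, at 3.46, 3.24, 3.35 and 2.84 at 1 month and 2.07, 2.23, 2.34 and 2.19 at 1 year (2.03-fold lower, limma adjusted p = 0.000367). A further probe of it gave -1.03.

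Melanin synthesis genes, which in this tissue mark the RPE and any attached choroid, fell in 2 of 11, with 10 of 11 negative and a median of -0.37. Pmel, the protein of melanosome fibrils, was 4.94, 4.16, 4.60 and 4.95 at 1 month and 4.08, 3.68, 3.55 and 4.15 at 1 year (limma adjusted p = 0.0403). Tyr, tyrosinase, fell by 0.47 ± 0.12. Neither passed the test without the female-pattern arrays (limma adjusted p = 0.0518 for Pmel and 0.0835 for Tyr), without 1-month replicate 4 (0.0728 and 0.0541) or with median centring.

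Extracellular matrix genes fell in 8 of 24 tested and rose in none, with a median of -0.51. Col3a1, the fibrillar collagen III chain, was 3.15, 3.22, 3.04 and 2.53 at 1 month and 0.82, 0.89, 0.58 and 1.22 at 1 year. It fell by 2.11 ± 0.21 (4.32-fold, limma adjusted p = 3.41e-05), and 1-month replicate 4 was the lowest young array. Col1a1, a chain of collagen I, read 4.70, 4.41, 4.54 and 4.89 and then 2.77, 2.93, 1.97 and 3.58 (3.54-fold lower, limma adjusted p = 0.00442). Postn, the matrix protein periostin, was 0.72, 0.74, 0.68 and 0.31 at 1 month and -0.44, -0.40, -0.68 and -0.08 at 1 year (limma adjusted p = 0.00499).

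Sparc, a collagen-binding protein, fell by 0.91 ± 0.12 and Col5a2, a collagen V chain, by 1.13 ± 0.21. The other called members were Col1a2, Col5a1 and Fbn1. Lum, Dcn and Bgn, the small proteoglycans of the same tissues, differed by 0.23, 0.42 and 0.16 and were not called. Without the female-pattern arrays 2 of the 24 were called, Col3a1 and Sparc, and Col1a1 was not (-1.97, limma adjusted p = 0.083). Of the endothelial and pericyte genes 3 of 14 rose, the receptor Flt1 (0.37 ± 0.08), the pericyte regulator Rgs5 (0.60 ± 0.13) and Plvap (0.54 ± 0.13), which lines fenestrated vessels. Leaving out the female-pattern arrays, 1 of the 14, Flt1, was called, and the median of the list turned from 0.06 to -0.01.

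The 6 gamma-crystallin genes, which encode structural proteins of the lens fibre, had the largest falls of all named genes. Crygf was 1.68, 5.29, 3.91 and 7.32 at 1 month and -5.02, -2.12, -3.73 and -4.20 at 1 year, a difference of -8.32 ± 0.89 (limma adjusted p = 5.21e-05), and a further probe gave -10.62. Cryge read 3.75, 7.13, 5.82 and 8.84 and then -6.47, -0.42, -1.66 and -0.68 (-8.69 ± 1.18, limma adjusted p = 0.000375), with its probe well above background on 3 of the 4 older arrays. The levels differed widely between arrays of one age, with 1-month replicate 4 highest and replicate 1 lowest for both genes. Crygb, Crygd, Cryga and Crygc differed by -6.29 ± 1.44, -5.88 ± 1.03, -5.77 ± 0.95 and -5.74 ± 1.09, and these 4 were not called without the female-pattern arrays, whereas Cryge and Crygf were (limma adjusted p = 0.00687 and 0.00783). The genes are close copies whose probes may share targets, so the 6 differences are not independent.

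Their promoters (RefSeq, build GRCm38.p6, all on chromosome 1) are close copies too, and the 80 bases before each start site are printed to show what the group has in common, with the word TATATA in capitals.
Cryga, chr1:65103364-65103443, minus strand: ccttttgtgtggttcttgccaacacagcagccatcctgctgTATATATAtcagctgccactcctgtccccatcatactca
Crygb, chr1:65082291-65082370, minus strand: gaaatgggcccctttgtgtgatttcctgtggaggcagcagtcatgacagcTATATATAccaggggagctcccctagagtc
Crygc, chr1:65073533-65073612, minus strand: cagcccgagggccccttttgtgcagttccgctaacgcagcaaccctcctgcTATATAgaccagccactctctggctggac
Crygd, chr1:65063441-65063520, minus strand: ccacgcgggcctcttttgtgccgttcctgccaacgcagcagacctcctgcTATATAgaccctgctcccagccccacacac
Cryge, chr1:65051164-65051243, minus strand: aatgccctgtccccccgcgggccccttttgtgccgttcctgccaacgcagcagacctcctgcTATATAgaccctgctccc
Crygf, chr1:65926442-65926521, plus strand: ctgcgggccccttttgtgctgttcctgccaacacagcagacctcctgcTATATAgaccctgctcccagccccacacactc
The word, which reads the same on both strands, begins between 39 and 18 bases before the annotated start in all 6, against 5.67% of all 32851 windows that hold it anywhere. After alignment Crygd and Crygf shared 74 of 80 bases (92.5%) and the least alike pair, Cryga and Cryge, 49 (61.2%). The annotated start of Cryge lies nearer to the word than in the others, so its printed stretch reaches further upstream of it. A match is a description of the sequence and was not set against any measure of binding.

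Other lens genes did not follow the gamma-crystallins on every array. Of the 15 lens genes tested, which include Crygd, all were negative with a median of -1.76, but Crygd was the one that passed the test. The mean of the list was 0.69, 3.22, 2.02 and 5.06 at 1 month and -1.54, -1.38, 2.69 and 3.72 at 1 year. So 1-year replicates 3 and 4 overlapped the younger arrays in lens RNA as a whole, while their Crygf read -3.73 and -4.20. In the wild type 9 of the 15 lens genes fell, with a median of -4.96. The age effects of the 2 genotypes were not called unequal for any of the 6 gamma-crystallins (for Crygf, limma adjusted p = 0.821). Lens is not part of the labelled tissue, and its part in the other results was not tested.

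Markers of other neighbouring tissues gave no call. The 12 skeletal muscle genes had a median of 0.62 with 10 positive, and their mean was 1.74 to 2.77 at 1 month and 1.99 to 3.60 at 1 year. The 9 cornea and conjunctiva genes had a median of 1.25 with 8 positive and 1 non-overlapping, against 13.8% non-overlapping over all genes. Krt12, the corneal keratin, was 3.01, 2.66, 1.32 and 4.83 at 1 month and 5.36, 7.50, 5.11 and 2.71 at 1 year. The 4 erythrocyte genes tested were all negative, with a median of -1.88, and -0.89 without 1-month replicate 4. Of these 4, 2 did not overlap between the ages. The part of these tissues in the age differences was not tested.

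**Figure D4:**
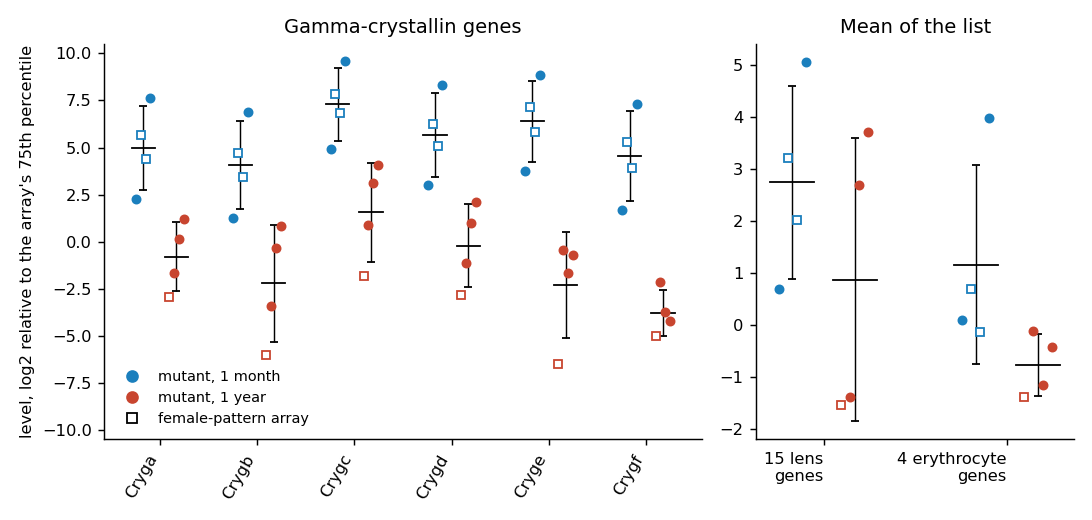
The left panel plots the 6 gamma-crystallin genes and the right panel the mean of 15 lens genes and of 4 erythrocyte genes on the 8 mutant arrays, in log2 relative to the 75th percentile of the array, with mean and SD (n = 4). The gamma-crystallin genes were picked among genes whose ages do not overlap. The lens list overlaps, and 1-month replicate 4 stands at 3.99 for the erythrocyte genes.

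Further large rises were seen in Calca, Glb1l3, Mmp3, Prb1 and Clec4d. Calca, which encodes both calcitonin and the neuropeptide CGRP by alternative splicing, was -3.35, -2.98, -3.39 and -3.00 at 1 month and -0.39, -0.18, -0.13 and -0.51 at 1 year. The rise of 7.35-fold (2.88 ± 0.14, limma adjusted p = 3.22e-08) was read by 1 probe, and the gene's other probe gave 0.16 ± 0.15 (limma unadjusted p = 0.313). Glb1l3, a galactosidase-like gene, read -1.74, -2.34, -2.62 and -2.11 and then 0.67, 0.57, 0.61 and 0.33 (6.71-fold, limma adjusted p = 1.06e-07). Mmp3, the matrix protease stromelysin, rose by 2.76 ± 0.48 and was not called without the female-pattern arrays (1.96, limma adjusted p = 0.158). Prb1, a proline-rich secreted protein, rose by 3.11 ± 0.36, with 5.19 from a further probe. Clec4d, a lectin receptor of myeloid cells, was -4.38, -4.88, -1.30 and -4.15 at 1 month and -0.40, -0.59, -0.89 and -0.55 at 1 year, and replicate 3 was the high young array as for S100a8.

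Large falls beyond crystallins and collagens were seen in Dynlrb2, Duxbl2, Duxbl1 and Arhgap36. Dynlrb2, a dynein light chain found in ciliated cells, was -0.76, -0.72, -1.02 and -1.49 at 1 month and -3.77, -3.47, -3.39 and -3.56 at 1 year (5.86-fold lower, limma adjusted p = 4.82e-06). Duxbl2, a double homeobox gene, read 0.27, 0.26, 0.32 and -0.38 and then -2.12, -2.12, -1.94 and -2.15 (4.59-fold lower, limma adjusted p = 7.07e-06). Its near copy Duxbl1, whose probe may share targets, fell by 2.10 ± 0.29. Arhgap36, a GTPase-activating protein gene on the X chromosome, was lower, but its probe was well above background on all 4 younger arrays and on 1 older one, so the size of the fall is not given. The 4 were picked among called genes whose ages do not overlap, and all were called without the female-pattern arrays.

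Of the oxidative stress genes 2 of 12 rose, the metal-binding Mt2 (0.62 ± 0.13) and the secreted peroxidase Gpx3 (1.61 ± 0.39). Of 8 iron-handling genes the ferritin heavy chain Fth1 rose (0.45 ± 0.10), of 9 senescence genes Mmp3, of 13 immediate early genes Egr2 (1.22 ± 0.23) and of 15 clock genes the repressor Ciart (0.41 ± 0.11). Over all genes 6.7% were called, and none of the 6 genes named here was called without the female-pattern arrays. Genes of endoplasmic reticulum stress (0 of 15, median -0.11), cholesterol synthesis (0 of 16, median 0.16), the respiratory chain (0 of 14, median -0.08) and myelin (0 of 10, median -0.07) gave no call.

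Much of this was also seen with age in the wild type, where 2352 genes (12.4%) were called, 1391 higher and 961 lower. Of the 1274 genes called in the mutant, 727 were called in the wild type, 57.1% of the mutant and 30.9% of the wild-type calls, and 713 of these had the same direction. The difference between the 2 age effects was tested directly as an interaction and was called for 80 genes (0.421%), 27 with the more positive change in the mutant and 53 with the more negative. Of the 80, 42 were also called for age in the mutant. Without the female-pattern arrays 12 were called, 11 of them among the 80.

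**Figure D5:**
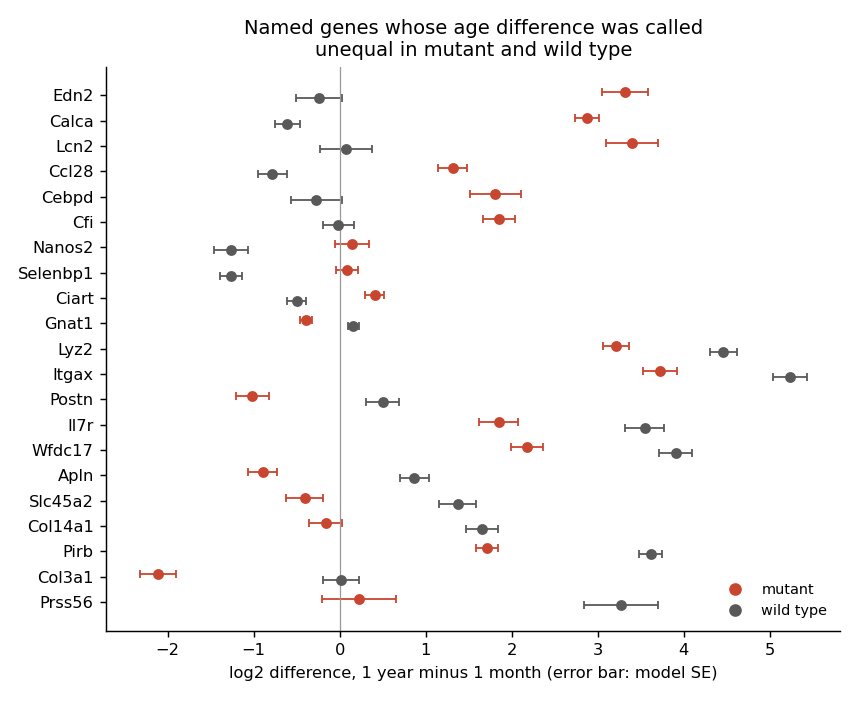
Log2 differences between 1 year and 1 month (x axis, error bars are model SE) in the mutant (red) and the wild type (grey) for the 21 named genes whose 2 differences were called unequal. Edn2, Calca, Lcn2, Cfi and Cebpd lie near or below 0 in the wild type and to the right in the mutant, whereas Itgax, Lyz2, Pirb and Wfdc17 lie to the right in both and further so in the wild type.

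Several genes of the gliosis list rose with age in the mutant by more than in the wild type. For Edn2 the wild-type difference was -0.24 ± 0.27, and the mutant's exceeded it by 3.56 ± 0.38 (limma adjusted p = 0.000948). Lcn2 differed by 0.07 ± 0.30 in the wild type (difference between effects 3.33 ± 0.43, limma adjusted p = 0.00387) and Cebpd by -0.27 ± 0.29 (2.08 ± 0.42, limma adjusted p = 0.0483). Of these 3, Edn2 was called without the female-pattern arrays (3.90, limma adjusted p = 0.00622), whereas Lcn2 (3.38, limma adjusted p = 0.0699) and Cebpd (2.21, limma adjusted p = 0.203) were not. Mutant and wild-type means at 1 month were -1.10 and -1.60 (Edn2), -0.99 and -0.33 (Lcn2) and 2.41 and 3.62 (Cebpd). At 1 year, in the same order, they were 2.215 and -1.84, 2.42 and -0.26, and 4.22 and 3.35. Gfap differed by -1.09 in the wild type, and the difference of 1.77 ± 0.37 missed the threshold (limma adjusted p = 0.0558).

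Calca differed by -0.61 ± 0.14 in the wild type, a difference between the effects of 3.49 ± 0.20 (limma adjusted p = 1.08e-06). The complement protease Cfi differed by -0.01 ± 0.18 there (difference 1.87 ± 0.26, limma adjusted p = 0.00666) and Ccl28 by -0.78 ± 0.17 (difference 2.10 ± 0.23, limma adjusted p = 0.00111). Of the 17 complement genes tested, Cfi was the only 1 with such a call. Calca and Ccl28 kept their call without the female-pattern arrays, and Cfi did not (limma adjusted p = 0.0699). Selenbp1, a selenium-binding protein, and Nanos2, known from germ cells, were nearly level with age in the mutant (0.09 ± 0.13 and 0.14 ± 0.20) and lower in the older wild type (-1.26 ± 0.13 and -1.26 ± 0.20), and without the female-pattern arrays these differences were not called (limma adjusted p = 0.0788 and 0.126). Ciart rose in the mutant and fell with age in the wild type (-0.50 ± 0.11, difference 0.91 ± 0.16, limma adjusted p = 0.0234). Its mutant and wild-type means were -0.81 and -0.14 at 1 month and -0.40 and -0.64 at 1 year. Its difference was not rerun without the female-pattern arrays.

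Myeloid genes were among those whose rise was smaller in the mutant, from a higher mean level at 1 month. Pirb, an inhibitory receptor of myeloid cells that binds class I molecules, read -2.34, -2.31, -2.20 and -2.06 at 1 month and -0.43, -0.53, -0.79 and -0.29 at 1 year in the mutant. It rose by 1.72 ± 0.13 there and by 3.61 ± 0.13 in the wild type, a difference of -1.90 ± 0.18 (limma adjusted p = 0.000438) that was also called without the female-pattern arrays. Itgax and Lyz2 rose by 5.24 ± 0.20 and 4.46 ± 0.15 in the wild type (differences -1.51 ± 0.28 and -1.25 ± 0.22, limma adjusted p = 0.032 and 0.0253), with the Itgax probe well above background on 3 of the 4 younger wild-type arrays. The differences of Itgax and Lyz2 were not rerun without the female-pattern arrays. Wfdc17, a secreted protein of macrophages, had a difference between the age effects of -1.73 ± 0.27, which was not called without the female-pattern arrays (limma adjusted p = 0.105). At 1 month the mutant and wild-type means were -2.23 and -3.61 (Pirb), -4.78 and -5.82 (Itgax), -2.01 and -2.62 (Lyz2) and -1.54 and -3.11 (Wfdc17). The 1-year means, in the same order, were -0.51 and 0.00, -1.05 and -0.58, 1.21 and 1.84, and 0.63 and 0.80. The genotypes were not tested against each other within an age. For Il7r, the interleukin 7 receptor, the probe was well above background on 1 of 4 mutant and 0 of 4 wild-type arrays at 1 month, so the difference between its 2 rises has no reliable size. Trem2, at 2.41 ± 0.10 in the wild type, was not called unequal (-0.14 ± 0.14, limma adjusted p = 0.829). The list of activated microglia and macrophage markers, which holds Itgax, Lyz2 and Trem2, had a median of 1.36 in the mutant and 2.14 in the wild type. The medians were 0.95 and 1.42 for antigen presentation and 0.26 and 0.93 for interferon-stimulated genes, and list medians were not tested against each other.

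The difference between the age effects was called for 3 of 24 matrix genes, 2 of 11 melanin genes and 1 of 24 rod genes, against 0.421% of all genes. It was also called for 3 of 18 gliosis genes, 3 of 15 activated microglia and macrophage genes and 3 of 14 antigen presentation genes. Col3a1 was level with age in the wild type (0.02 ± 0.21), -2.13 ± 0.30 apart (limma adjusted p = 0.00678), and Postn differed by 0.50 ± 0.19 there (difference -1.52 ± 0.27, limma adjusted p = 0.0287). Col14a1, a fibril-associated collagen, was -0.16 ± 0.19 in the mutant and 1.66 ± 0.19 in the wild type (limma adjusted p = 0.0087). Slc45a2, a transporter of the melanosome, was -0.41 ± 0.21 and 1.37 ± 0.21 (limma adjusted p = 0.0198), and the melanin list had medians of -0.37 and 0.64. For Pmel the difference of -1.49 ± 0.31 missed the threshold (limma adjusted p = 0.0516). Mutant means exceeded wild-type means at 1 month: 2.99 and 0.63 (Col3a1), 0.615 and -1.17 (Postn), 0.50 and -1.33 (Col14a1), -0.175 and -1.25 (Slc45a2). At 1 year these pairs were 0.88 and 0.65, -0.40 and -0.67, 0.335 and 0.32, and -0.58 and 0.12. Gnat1 differed by 0.16 ± 0.07 in the wild type, -0.55 ± 0.09 apart (limma adjusted p = 0.0172). The rod list had medians of -0.30 and -0.03. The differences of Col3a1, Col14a1 and Slc45a2 were not called without the female-pattern arrays (limma adjusted p = 0.115, 0.0768 and 0.0779). Those of Postn and Gnat1 were not rerun without these arrays. The age differences of Postn and Gnat1 in the mutant were not called there (limma adjusted p = 0.174 and 0.111).

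Prss56 and Apln also had the more negative change in the mutant. Prss56, a serine protease made by Müller glia, read -4.85, -4.18, -3.48 and -4.10 at 1 month and -2.57, -5.17, -3.96 and -4.00 at 1 year in the mutant, which overlap. It rose by 3.27 ± 0.43 in the wild type (difference -3.04 ± 0.60, limma adjusted p = 0.0469), a difference not called without the female-pattern arrays (-3.18, limma adjusted p = 0.0639). Apln, the vascular peptide apelin, fell from -2.59, -2.73, -2.74 and -2.06 to -3.55, -3.60, -3.47 and -3.08 in the mutant and rose by 0.87 ± 0.17 in the wild type (difference -1.76 ± 0.23, limma adjusted p = 0.00452), also without the female-pattern arrays (-1.93, limma adjusted p = 0.0329).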

How the data were processed

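RNA of 16 samples was measured on 1 single-colour Agilent array each. The deposited scanner files hold intensity per spot, background-subtracted per the file headers, made with Agilent Feature Extraction (version 11.0.1.1 in the submitters' processing notes), and median spot and background intensity. A log2 matrix that the authors deposited was used as an alternative; its normalization software is not given in the sources used here.

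From 59305 non-control spots, outlier spots were dropped, log2 processed intensity was set against each array's 75th percentile, and spots were averaged per probe. Of 55681 probes, 27235 matched 1 gene each by RefSeq accession. A probe had to exceed background clearly on 4 or more of the 16 arrays, and each gene is represented by its brightest such probe on average, giving 19022 genes. limma 3.58.1 (R 4.3.3) fitted 4 group means over all 16 arrays, with two-sided tests and Benjamini-Hochberg adjustment. The code was tested on simulated data. The number of arrays limits the precision.

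The comparison, its 39 gene lists (534 genes, 516 tested) and the named-gene rule were chosen with earlier results of these data known. Named were the 12 called genes with the largest differences each way whose ages do not overlap, up to 5 called members of a list (otherwise its first member), and the 8 largest called differences between the age effects each way, leaving out clone, RIKEN, Gm, LOC and predicted names. Other genes are named as list members, and single values of some listed genes are not reported here. Normexp used the median spot intensity with an offset of 50. Alternatives also covered quantile and median centring, filters, slide, array row, sex-linked pattern, probe averaging and left-out arrays. Replicate numbers did not pair the samples: the 1-month and 1-year mutants of number 1 to 4 had deviations correlated at 0.04, -0.14, 0.02 and 0.17.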

Additional observations from a re-analysis of the deposited data

Results flagged for a closer look

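Within the groups of 4 mutant arrays, 1 array stood apart by its gap relative to the range for 14 of the 218 gene and age pairs checked (6.42%). Independent normal values would flag about 1 in 20 groups, which is near that share. The genes share the same arrays, many were picked for ages that do not overlap, and some gaps were small. The 14 are therefore listed as readings only. Of these, 6 concerned 1-month replicate 4, the array with the highest erythrocyte mean: Duxbl2 at -0.38 (others 0.26 to 0.32), Aqp4 at 1.30 (others 1.65 to 1.66), C4b at 2.07 (others 1.38 to 1.49), C3 at 0.16 (others -0.60 to -0.53), Postn at 0.31 (others 0.68 to 0.74), Mest at 2.13 (others 2.58 to 2.65). At 1 month Itgax stood at -5.23 on replicate 2 (others -4.67 to -4.58) and Edn2 stood at -1.93 on replicate 1 (others -0.90 to -0.69). At 1 year replicate 2 stood apart for Cfi at -0.89 (others -0.11 to 0.04), Tubb3 at 2.44 (others 2.89 to 2.91), Psmb9 at 0.47 (others 0.03 to 0.09), Psmb8 at 0.38 (others 0.20 to 0.23). The 1-year replicate 3 array stood apart for Serpina3n at 0.89 (others 0.38 to 0.44), Duxbl2 at -1.94 (others -2.15 to -2.12).

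For 21 named genes the age difference in the mutant was unequal to that in the wild type by limma's test of the difference. It was more positive in the mutant for Edn2 (by 3.56), Calca (by 3.49), Lcn2 (by 3.33), Ccl28 (by 2.10), Cebpd (by 2.08), Cfi (by 1.87), Nanos2 (by 1.41), Selenbp1 (by 1.35), Ciart (by 0.91). It was more negative for Prss56 (-3.04), Col3a1 (-2.13), Pirb (-1.90), Col14a1 (-1.82), Slc45a2 (-1.78), Apln (-1.76), Wfdc17 (-1.73), Il7r (-1.70), Postn (-1.52), Itgax (-1.51), Lyz2 (-1.25), Gnat1 (-0.55). The Il7r probe was well above background on 1 of 4 mutant and 0 of 4 wild-type arrays at 1 month, so its value has no reliable size.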

How the results depend on the processing

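Normexp, quantile normalization, both filters, slide, array row and sex-pattern terms, the trend fit, averaged probes and the deposited matrix gave 983 to 1415 genes called for age in the mutant, within 1.5 times the 1274 reported. Counts outside that range were 640 with median centring, 840 with the mutant arrays alone, 275 without the female-pattern arrays, 37 on slide 1 and 162 on slide 2, and 784 to 1924 with 1 array left out (784 without 1-month replicate 3, 1924 without replicate 4). Among probes the count was 711 with median centring, 807 with the replicate block and 204 without the female-pattern arrays. With median centring the wild type gave 1360 genes, 77.5% higher against 59.1%, and the difference between the age effects 21. That difference gave 122 genes with normexp, 125 with the trend fit, 12 without the female-pattern arrays, 1 on slide 1, 0 on slide 2 by limma (1285 at unadjusted p under 0.05) and 33 to 195 with 1 array left out. The replicate block, whose numbers do not pair the samples, gave 946 genes for age and 43 for the difference.

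Of the 92 named genes called, 69 stayed called with each array left out in turn, 45 without the female-pattern arrays, 83 with the sex pattern as a covariate and 12 under every alternative run (Calca, Crygf, Ctss, Dynlrb2, Edn2, Glb1l3, Il7r, Itgax, Lcn2, Lyz1, Lyz2 and Trem2). The direction turned only for genes that were not called: Acta1 (-0.06 with the sex pattern, -0.05 without the female-pattern arrays), Cd3e (0.02) and S100a8 (0.38) without the female-pattern arrays, Nanos2 (0.00), Selenbp1 (-0.06) and Prss56 (-0.42) on slide 1, and Col14a1 (0.11), Ndufs1 (-0.06) and Xist (0.43) on slide 2. With 1 array left out, values lay on both sides of or at 0 for Prss56 (-0.22 to 0.64), Rpe65 (-0.17 to 0.04), S100a8 (-0.67 to 0.48), Acta1 (-0.19 to 0.38), Cd3e (-0.19 to 0.07) and Ndufs1 (-0.01 to 0.10). The cause of these changes was not tested.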
